A study of Homo sapiens with 24 samples.

Results

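The hnRNP genes examined here encode 9 heterogeneous nuclear ribonucleoproteins: HNRNPA1, HNRNPA2B1, HNRNPC, HNRNPD, HNRNPH1, HNRNPK, HNRNPL, HNRNPM and HNRNPU. Each gene was represented by 1 window on hg19, and a peak was assigned to the gene when it overlapped the window by at least 1 nt on the gene's strand. Over 7 peak lists, 1074 of 269336 peaks fell in these windows, and 0 peaks in the windows lay on the opposite strand. The windows were given as approximate gene positions and were not checked against an hg19 annotation, so exons, introns and UTRs were not analysed here.

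The peaks come from eCLIP, in which proteins are crosslinked to RNA in cells by ultraviolet light and the RNA fragments held by an antibody's target are sequenced beside a paired input. All libraries were made from 293T, a human embryonic kidney cell line. The lists comprised 2 RBFOX2 libraries digested with 40 U of RNase I, 4 SLBP libraries of which replicates 1 and 2 received 40 U and replicates 3 and 4 received 5 U, and 1 IgG control library at 40 U. RBFOX2 is a splicing regulator that binds GCAUG elements, and SLBP binds the stem-loop at the end of replication-dependent histone mRNAs.

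The hnRNPs coat nascent RNA polymerase II transcripts and act in splicing, mRNA export, translation and mRNA decay. Many hnRNP genes are themselves regulated by alternative splicing, often through exons or retained introns whose inclusion sends the transcript to nonsense-mediated decay. RBFOX proteins work with several of these factors, since hnRNP M, hnRNP H and hnRNP C are components of the large assembly of splicing regulators (LASR) that RBFOX2 joins. The values below describe crosslinks on the RNAs of the hnRNP genes, not contacts with the hnRNP proteins.

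The members are grouped by the role of the proteins they encode. HNRNPA1, on chromosome 12 from 54674400 to 54679100 on the plus strand, encodes a protein that represses splice sites through silencer elements. HNRNPA2B1, on chromosome 7 from 26229500 to 26240500 on the minus strand, encodes its close relative, which also acts in RNA transport. HNRNPH1, on chromosome 5 from 179041100 to 179051800 on the minus strand, encodes a splicing regulator that binds runs of G.

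Among the other splicing factors, HNRNPC, on chromosome 14 from 21677200 to 21737700 on the minus strand, encodes a protein that binds runs of U. HNRNPL, on chromosome 19 from 39327000 to 39342400 on the minus strand, encodes a protein that binds CA-rich RNA. HNRNPM, on chromosome 19 from 8509800 to 8554100 on the plus strand, encodes a protein that binds GU-rich RNA.

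The remaining proteins have broader roles. HNRNPD, on chromosome 4 from 83273400 to 83295200 on the minus strand, encodes AUF1, which binds AU-rich elements and regulates mRNA decay. HNRNPK, on chromosome 9 from 86582900 to 86595600 on the minus strand, encodes a KH-domain protein that binds C-rich RNA. HNRNPU, on chromosome 1 from 245013600 to 245027900 on the minus strand, encodes SAF-A, a chromatin-associated RNA-binding protein.

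Each peak carried the authors' log2 fold of the immunoprecipitation over its paired input and their −log10 p. A peak was called enriched when it reached both limits, a −log10 p of at least 5 and an 8-fold excess over input (log2 fold of at least 3). The lists hold no read counts, so the depth behind each fold is unknown. The labels do not state whether replicates were separate cultures, and every SD and permutation p-value therefore measures only a spread between libraries that may be technical. Whole lists held 74902 and 97594 peaks for RBFOX2, 10122 to 23034 for SLBP and 28361 for IgG.

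The hnRNP transcripts gave many peaks in every library, and few of them were enriched. The 9 windows held 231 and 216 RBFOX2 peaks, against 136, 129, 128 and 108 SLBP peaks for replicates 1 to 4 and 126 IgG peaks. The peaks covered 8693 and 8933 nt in the RBFOX2 libraries, 4140 to 5543 nt in the SLBP libraries and 5086 nt in the IgG library. As a share of each list, the windows held 0.308% and 0.221% of RBFOX2 peaks, 0.590% to 1.07% of SLBP peaks and 0.444% of IgG peaks. Both RBFOX2 shares were thus below every SLBP share and the IgG share, although the RBFOX2 lists held the most hnRNP peaks. The lists differ in length, so these shares also move with how many peaks lie elsewhere.

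Enriched peaks numbered 3 of 231 in RBFOX2 replicate 1 and 5 of 216 in replicate 2. This is 1.30% (exact Clopper-Pearson 95% interval 0.269% to 3.75%) and 2.31% (0.756% to 5.32%) of the hnRNP peaks, where 7.95% and 7.66% of all peaks in the same lists were enriched. Both intervals lay below the share of the whole list. They cover counting error only and take the peaks as independent, although merging touching enriched peaks leaves 4 in replicate 2. Across the 2 RBFOX2 libraries the count averaged 4 ± 1.41 and the share 1.81% ± 0.719 (SD, n = 2).

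The SLBP libraries held 1 enriched hnRNP peak in replicate 1 and 0 in replicates 2, 3 and 4, a mean of 0.25 ± 0.5 (SD, n = 4). The whole SLBP lists were enriched at 1.23%, 1.27%, 1.70% and 2.33% of peaks. The IgG library held 0 enriched peaks among 126. A count of 0 allows up to 3 counts, a share of 2.38%, and the exact 95% upper limit is 2.89%, where 0.180% of its whole list was enriched. For SLBP replicates 2 to 4, the same 3-count bounds are 2.33%, 2.34% and 2.78% and the exact upper limits 2.82%, 2.84% and 3.36%, so a share equal to that of the whole list was not distinguishable from 0 at these numbers of peaks. At these limits the RBFOX2 libraries held more enriched hnRNP peaks than any SLBP or IgG library, in a smaller share than the RBFOX2 lists as a whole. The counts move with the limits: a −log10 p of at least 3 gave a mean of 6.5 with RBFOX2, 0.75 with SLBP and 0 with IgG, and limits of 10 and 4 gave 1.5, 0 and 0.

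By fold alone, whatever the p, 4 and 10 hnRNP peaks of RBFOX2 reached a log2 fold of 3, where 12.0% and 11.6% of the whole lists did. SLBP had 1, 4, 0 and 1 such peaks in replicates 1 to 4, where 7.21%, 7.44%, 2.06% and 15.3% of the whole lists reached this fold, and IgG had 1, where 4.12% did. The highest log2 folds in the hnRNP genes were 4.30 and 4.92 with RBFOX2, 3.17, 4.04, 2.66 and 3.17 with SLBP and 3.12 with IgG, and those of the whole lists were 10.05 and 9.42, 10.81, 11.89, 9.83 and 9.51, and 8.29. Every library thus held peaks elsewhere that exceeded its strongest hnRNP peak.

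**Figure D1:**
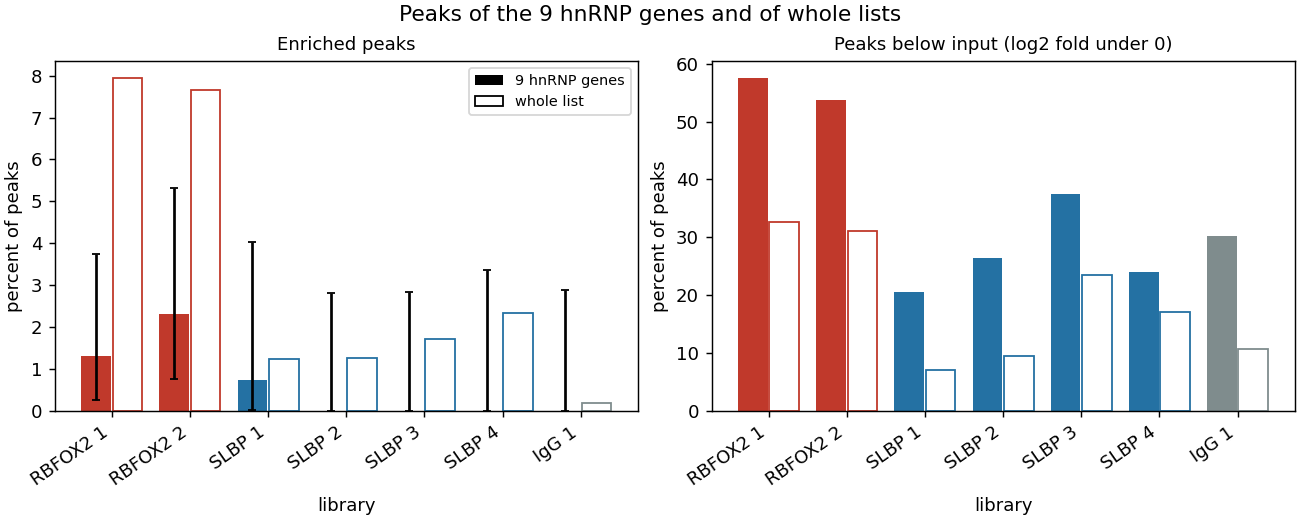
Share of peaks in each library that were enriched over input (left, percent, bars with exact 95% binomial intervals for the hnRNP peaks) or had a log2 fold below 0 (right, percent), with filled bars for the 9 hnRNP genes and open bars for the whole list. The RBFOX2 libraries stand at 1.30% and 2.31% enriched in the hnRNP genes, beside 7.95% and 7.66% in the whole lists.

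By log2 fold, the highest RBFOX2 peaks of the gene group lay in HNRNPA1. By −log10 p, HNRNPH1 and HNRNPA2B1 each reached 24.7 in replicate 1, above the 19.8 of HNRNPA1. A stretch of 78 nt on chromosome 12 from 54676740 to 54676817, on the plus strand, was covered by enriched peaks of both RBFOX2 libraries and lay 2340 nt from the 5′ end of the window, 50.6% along it. Replicate 1 had a single peak there with a log2 fold of 4.30 and a −log10 p of 19.8. Replicate 2 had a pair of touching peaks with log2 folds of 4.92 and 4.45. No SLBP or IgG peak touched this stretch, and the next highest RBFOX2 peaks in HNRNPA1 had log2 folds of 2.00 in replicate 1 and 1.86 in replicate 2.

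The second region enriched in both RBFOX2 libraries lay in HNRNPU, on chromosome 1 from 245024372 to 245024455 on the minus strand, 84 nt long and 3445 nt from the 5′ end of the window. The log2 folds were 3.18 and 3.08, just above the limit of 3, with −log10 p of 17.4 and 11.8. Peaks of SLBP replicates 3 and 4 lay in the same cluster of peaks at log2 folds of 1.66 and 2.17 but did not touch the 84 nt. These 2 regions are 0.0764% of the 2618 regions that both RBFOX2 libraries share across the lists. The other 7 hnRNP genes had no region past both limits in both RBFOX2 libraries.

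Further enriched RBFOX2 peaks passed in 1 library only, and the other library had a weaker peak at the same place. In HNRNPH1, the peak on chromosome 5 from 179046854 to 179046950 had a log2 fold of 3.17 with a −log10 p of 24.7 in replicate 1, and replicate 2 reached 2.77 with a −log10 p of 10.1. In HNRNPC, the peak on chromosome 14 from 21712885 to 21712949 had a log2 fold of 3.26 in replicate 2 and 1.87 in replicate 1. In HNRNPM, the peak on chromosome 19 from 8518868 to 8518897 had 4.05 in replicate 2 and 2.50 in replicate 1. At all 3 places the 2 libraries were on the same side of input and differed in which side of the limits they fell.

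Of the enriched hnRNP peaks, 2 of the 3 in replicate 1 (66.7%) were matched by one in replicate 2, and 3 of the 5 in replicate 2 (60%) by one in replicate 1. The same shares over the whole RBFOX2 lists were 68.7% and 60.7%. The replicates therefore matched each other in the hnRNP genes to about the degree they did elsewhere, on very few peaks.

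The 1 enriched SLBP peak lay in HNRNPU near the 5′ end of the window, on chromosome 1 from 245026365 to 245026422, with a log2 fold of 3.17 and a −log10 p of 6.43 in replicate 1. Peaks of every other library lay in the same cluster of peaks, 209 nt long from 245026256 to 245026464. The highest log2 folds within it were 1.44 and 2.64 in the RBFOX2 libraries, 1.46, 0.98 and 2.32 in SLBP replicates 2 to 4, and 1.18 in IgG. The cluster thus held a peak above input in all 7 libraries, the IgG control included. These highest peaks need not touch the enriched SLBP peak.

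A first look at the hnRNP peaks as a whole shows folds at or below input with RBFOX2. The median log2 fold over the 9 genes was −0.23 and −0.24 in the RBFOX2 libraries, against 0.77, 0.51, 0.24 and 0.58 in SLBP replicates 1 to 4 and 0.43 in IgG. The medians of the whole lists were 0.73 and 0.86 for RBFOX2, 1.57, 1.46, 0.66 and 1.17 for SLBP and 1.31 for IgG. In each of the 7 libraries the hnRNP median was below that of its own list, by a mean of 1.03 ± 0.094 for RBFOX2 (SD, n = 2), 0.69 ± 0.23 for SLBP (SD, n = 4) and 0.88 for IgG. The scaling of each list is not known to match that of another, so folds of different lists stand side by side as the authors gave them.

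Below input, with a log2 fold under 0, were 57.6% and 53.7% of the hnRNP peaks of RBFOX2, where 32.6% and 31.0% of the whole lists were. For SLBP the shares were 20.6%, 26.4%, 37.5% and 24.1%, where the whole lists had 7.02%, 9.45%, 23.4% and 17.0%. IgG had 30.2%, where its whole list had 10.7%. Most RBFOX2 peaks on these transcripts were thus weaker than the paired input, and the highest share among the SLBP and IgG libraries was the 37.5% of SLBP replicate 3.

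**Figure D2:**
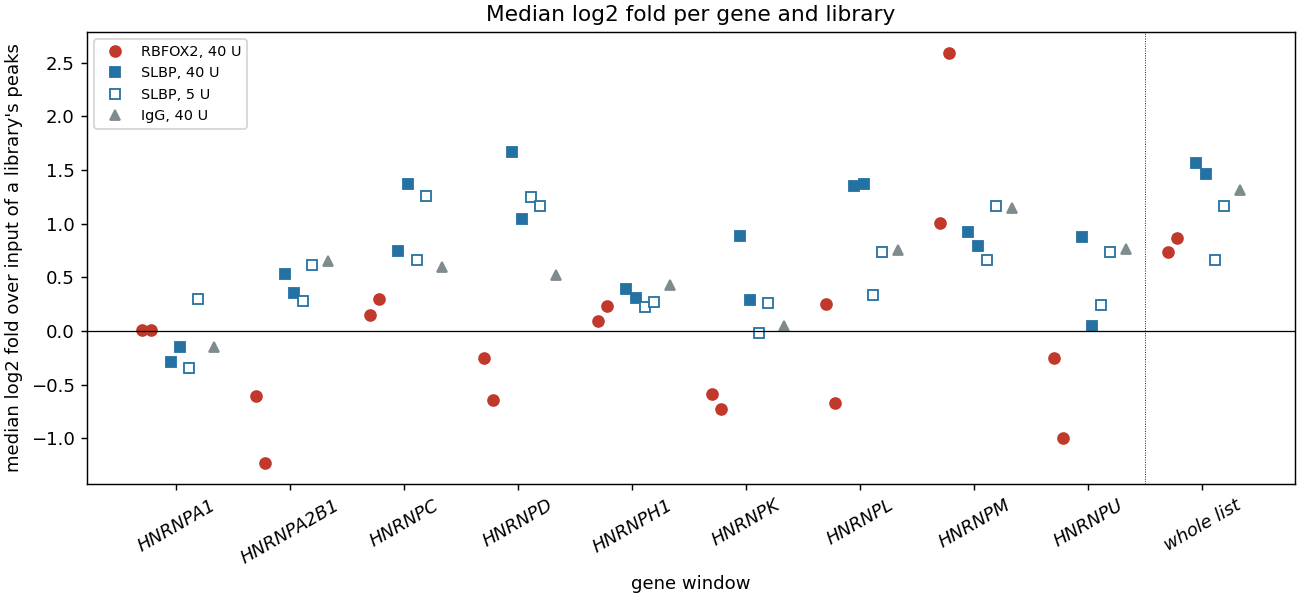
Median log2 fold over input of the peaks of each hnRNP gene (one column per gene, with the whole list last), with circles for RBFOX2, squares for SLBP (open at 5 U) and triangles for IgG. In HNRNPA2B1, HNRNPD and HNRNPU both RBFOX2 medians lie below 0 and all 4 SLBP medians above 0.

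The gene medians were compared between 2 RBFOX2 and 4 SLBP libraries with a two-sided exact permutation test for each of the 9 genes. The smallest p this design can give is 0.133, so no gene could pass 0.05, and the p-values are unadjusted. The share of all genes whose libraries separate was not computed, so the gene counts in this paragraph have no background to stand beside. In 6 of the 9 genes the libraries did not overlap, and in all 6 RBFOX2 was the lower. This direction holds on the folds as deposited; subtracting each list's own median leaves 6 of 9 differences negative in place of 7. After that step the libraries are apart with RBFOX2 lower in 4 genes (HNRNPA2B1, HNRNPD, HNRNPK and HNRNPL). RBFOX2 is higher in 2, HNRNPA1 and HNRNPM, with differences between group means of 0.54 and 1.33. In HNRNPA1 the nearest libraries almost meet. RBFOX2 replicate 2 had a median of 0.009 where its list had 0.863, and SLBP replicate 4 had 0.301 where its list had 1.166. HNRNPC and HNRNPU overlap (exact permutation p = 0.4 and 0.267). Among peaks with a −log10 p above 0, which lie above input, the differences of HNRNPK and HNRNPU turn to 0.48 and 0.19, and those of HNRNPA2B1, HNRNPD, HNRNPL and HNRNPC shrink to −0.58, −0.43, −0.39 and −0.22.

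The largest difference was in HNRNPD, the gene of AUF1. Its median log2 fold was −0.25 and −0.64 with RBFOX2, 1.67, 1.04, 1.24 and 1.17 with SLBP and 0.52 with IgG. The RBFOX2 mean was lower than the SLBP mean by 1.73 (difference −1.73, exact permutation p = 0.133), and IgG lay between them.

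HNRNPA2B1 had medians of −0.60 and −1.23 with RBFOX2, against 0.53, 0.36, 0.28 and 0.61 with SLBP and 0.66 with IgG, a difference of −1.36 between RBFOX2 and SLBP (exact permutation p = 0.133). Its RBFOX2 peaks past the middle of the window were almost all below input, 14 of 15 in replicate 1 and 8 of 8 in replicate 2. Before the middle most were below input too, 18 of 25 and 19 of 26. Peaks in this gene were dense, at 3.36 per kb on average with RBFOX2, 1.80 with SLBP and 2.36 with IgG.

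HNRNPU, the gene of SAF-A, had medians of −0.25 and −0.999 with RBFOX2, against 0.87, 0.04, 0.24 and 0.73 with SLBP and 0.76 with IgG, a difference of −1.10 (exact permutation p = 0.133). This difference is −0.73 without RBFOX2 replicate 2, −0.57 with peaks weighted by width and −0.69 with list medians subtracted. Over the HNRNPU window 21 of 38 and 15 of 28 RBFOX2 peaks were below input. Before the middle, where the reproducible RBFOX2 region lies, 14 of 28 and 13 of 25 were. HNRNPK had −0.59 and −0.72 with RBFOX2, against 0.88, 0.29, −0.02 and 0.26 with SLBP and 0.05 with IgG, a difference of −1.01 (exact permutation p = 0.133). Past the middle of the HNRNPK window, 12 of 14 and 10 of 10 RBFOX2 peaks were below input.

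HNRNPL had medians of 0.25 and −0.67 with RBFOX2, against 1.35, 1.36, 0.34 and 0.73 with SLBP and 0.76 with IgG, a difference of −1.16 (exact permutation p = 0.133), which is −0.70 without RBFOX2 replicate 2 and −0.75 with list medians subtracted. HNRNPC had 0.15 and 0.29 with RBFOX2, against 0.74, 1.36, 0.66 and 1.26 with SLBP and 0.59 with IgG, a difference of −0.79 (exact permutation p = 0.133). Weighting peaks by their width brings the HNRNPC difference to −0.05. In these genes the groups were also apart, but RBFOX2 had medians above 0 in both libraries of HNRNPC and in replicate 1 of HNRNPL. HNRNPC had few peaks for its length, 0.17 per kb with RBFOX2, 0.09 with SLBP and 0.07 with IgG.

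In the other genes RBFOX2 and SLBP overlapped. HNRNPA1 had medians of 0.01 and 0.01 with RBFOX2, against −0.29, −0.15, −0.34 and 0.30 with SLBP and −0.15 with IgG (difference 0.13, exact permutation p = 0.533). HNRNPH1 had 0.09 and 0.23 with RBFOX2, against 0.40, 0.31, 0.22 and 0.27 with SLBP and 0.43 with IgG (difference −0.14, exact permutation p = 0.267). Subtracting list medians turns the HNRNPH1 difference to 0.28, so its direction depends on the scaling.

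HNRNPM had the highest RBFOX2 medians, 1.00 and 2.59, against 0.92, 0.79, 0.66 and 1.17 with SLBP and 1.14 with IgG (difference 0.91, exact permutation p = 0.267). It was the only one of the 9 genes whose RBFOX2 medians both exceeded the medians of the whole RBFOX2 lists, and in the other 8 genes both RBFOX2 medians were below them. Its medians rest on 6 and 11 RBFOX2 peaks, and leaving out replicate 2 brings the difference to 0.12, and leaving out replicate 1 to 1.71. Weighting peaks by their width brings the HNRNPM difference to 0.26. Peaks in the window were sparse, at 0.19 per kb with RBFOX2, 0.12 with SLBP and 0.11 with IgG.

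**Figure D3:**
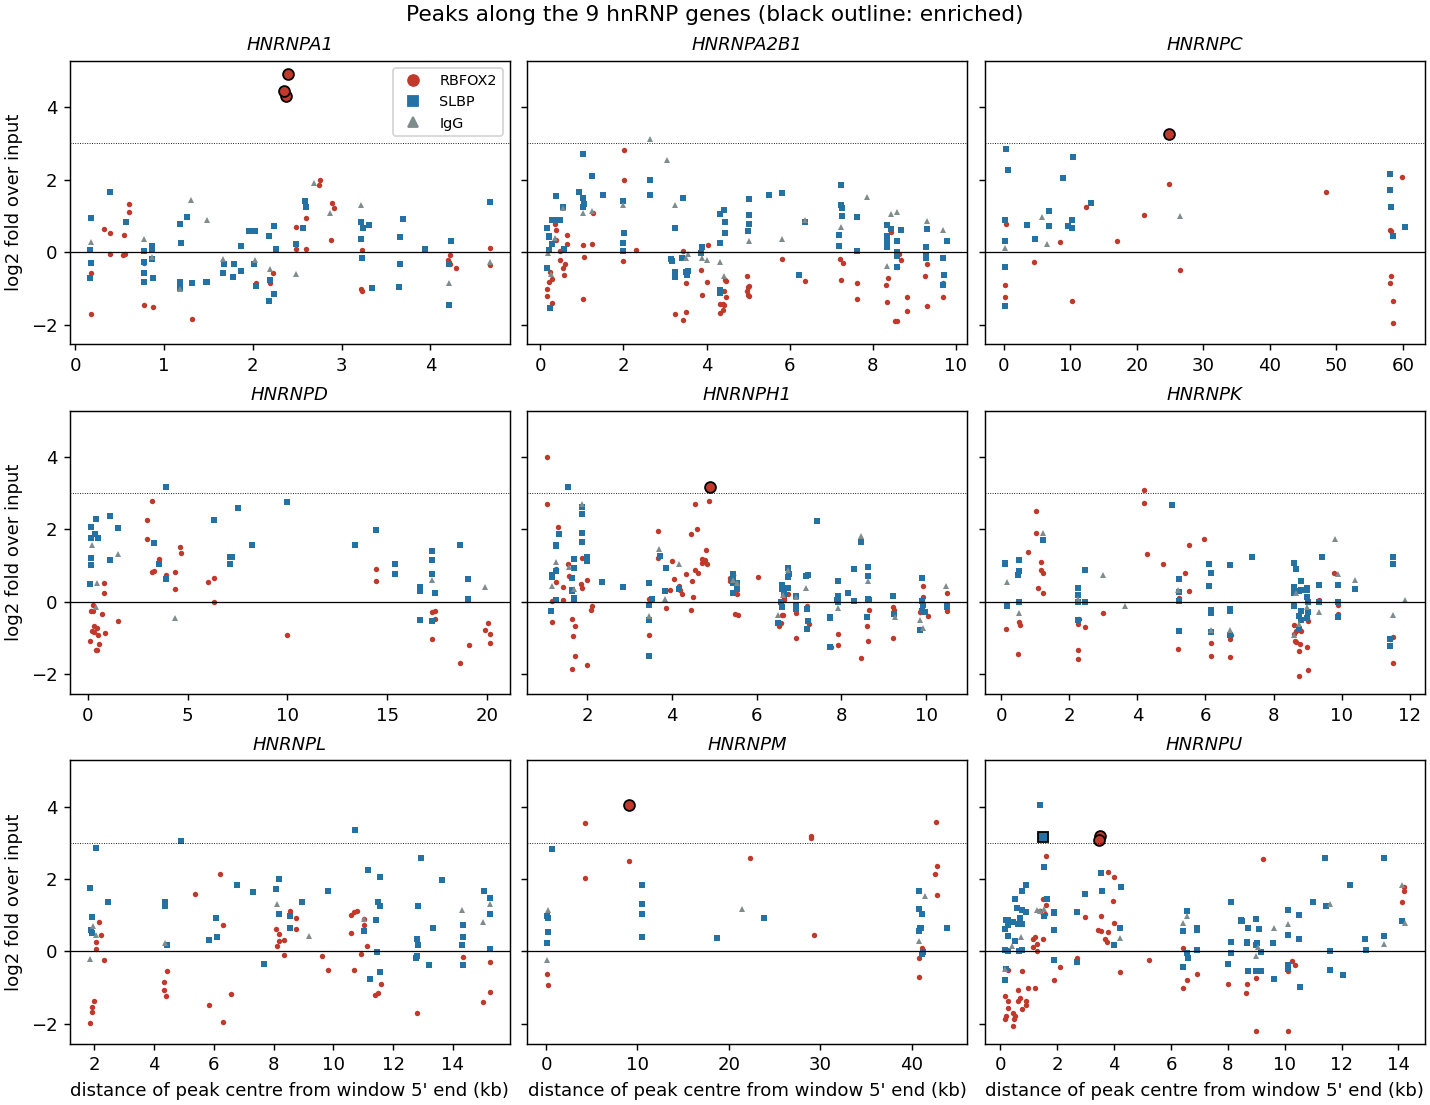
Log2 fold over input of each peak against its distance in kb from the 5′ end of the gene window, one panel per gene, with circles for RBFOX2, squares for SLBP and triangles for IgG; black outlines mark enriched peaks and the dotted line a log2 fold of 3. The RBFOX2 peaks of HNRNPA1 reach 4.30 and 4.92 near the middle of the window, with a touching replicate 2 peak at 4.45, and the other RBFOX2 peaks of that gene stay below the dotted line.

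Peaks from all lists that overlapped or touched were joined into places, a step chosen after the data were seen, and each library's highest fold stood for a place. The hnRNP windows held 311 places, of which 120 had a peak in both RBFOX2 lists. Of these, 29 (24.2%) had no peak in any SLBP or IgG list, where 71.0% of the places in both RBFOX2 lists were of this kind over all peaks. Most RBFOX2 places on the hnRNP transcripts thus also carried a peak with SLBP or IgG.

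The folds at the places in both RBFOX2 lists differed by whether SLBP or IgG had a peak there. At the 29 places found with RBFOX2 only, the median log2 folds were 1.07 and 1.35, and 24 places (82.8%) were above input in both libraries, where 78.2% of such places over all lists were. At the 91 places shared with SLBP or IgG, the medians were −0.22 and −0.62, and 45 places (49.5%) were below input in both libraries, where 41.4% over all lists were. The same contrast stood over all lists, with medians of 1.66 and 1.67 at RBFOX2-only places and 0.09 and −0.14 at shared ones, so it is not a difference between the hnRNP genes and the rest.

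Across the 120 places the folds of RBFOX2 replicates 1 and 2 correlated with Pearson's r = 0.84 and Spearman's rho = 0.81, and over all 39127 such places with 0.80 and 0.79. Between SLBP replicates 1 and 2 the values were 0.46 and 0.40 over 69 hnRNP places, and between replicates 3 and 4 they were 0.51 and 0.44 over 67 places. Between RBFOX2 and IgG they were 0.54 and 0.53 for replicate 1 over 91 places, and 0.37 and 0.34 for replicate 2 over 76 places. These are descriptions, since places of 1 library share its depth, its input and its scaling.

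**Figure D4:**
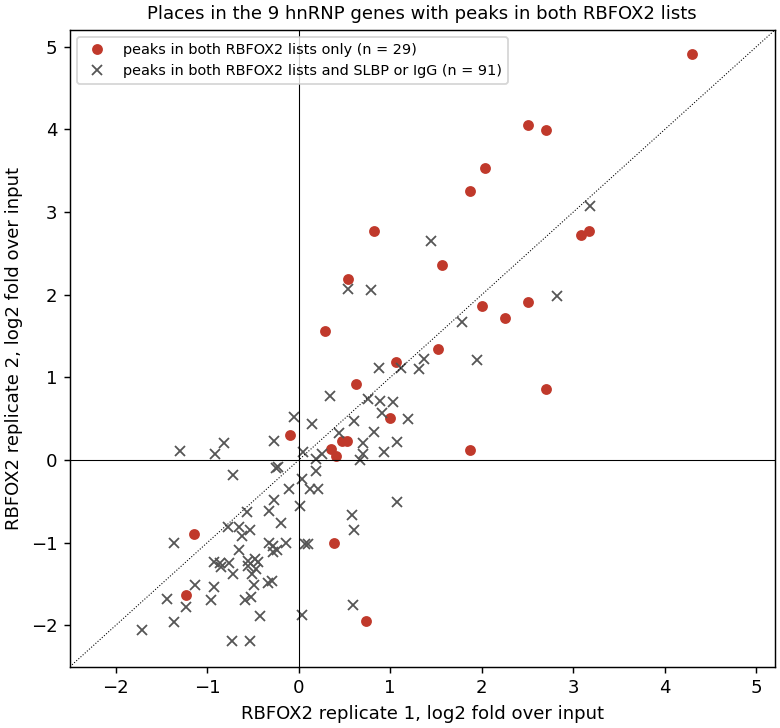
Log2 fold over input of RBFOX2 replicate 1 (x axis) against replicate 2 (y axis) at the 120 hnRNP places with a peak in both lists, with filled red points for the 29 places without an SLBP or IgG peak and grey crosses for the 91 others. The red points lie mostly above 0 on both axes, with medians of 1.07 and 1.35.

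Each of the 9 genes had at least 1 RBFOX2-only place. HNRNPH1 had 6, HNRNPD 5, HNRNPL 4, and HNRNPK, HNRNPM and HNRNPU 3 each, while HNRNPA1 and HNRNPA2B1 had 2 each and HNRNPC 1. Of the 29, 21 lay before the middle of their window and 8 past it. All 6 places of HNRNPH1, all 3 of HNRNPK and all 3 of HNRNPU were before the middle, while both places of HNRNPA1 were past it. Of RBFOX2 peaks of any kind, 28 of 38 and 25 of 28 in HNRNPU lay before the middle. The counts were 27 of 50 and 23 of 37 in HNRNPH1, 14 of 28 and 16 of 26 in HNRNPK, and 8 of 18 and 9 of 20 in HNRNPA1. Whether RBFOX2-only places differ from these in position was not tested.

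After HNRNPA1, the highest RBFOX2-only places by their weaker library were in HNRNPH1 and HNRNPK. HNRNPH1 had log2 folds of 3.17 and 2.77 in RBFOX2 replicates 1 and 2 at 4762 nt from the 5′ end of the window, in a place of 185 nt, and 2.70 and 3.99 at 1038 nt. HNRNPK had 3.09 and 2.72 at 4166 nt and 2.50 and 1.91 at 987 nt. Neither gene held a region enriched in both libraries at these limits, and HNRNPK held no enriched peak in either library. At the first HNRNPH1 place replicate 2 fell short of the fold limit. At the other 3 places both libraries fell short of the −log10 p or the fold limit. By its weaker library, the HNRNPK place at 987 nt ranked below the HNRNPM places at 4279 and 9068 nt.

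HNRNPM had 3 RBFOX2-only places, at 4279, 9068 and 42745 nt, with log2 folds of 2.04 and 3.54, 2.50 and 4.05, and 1.56 and 2.36 in replicates 1 and 2. All 3 were above input in both libraries, and replicate 2 was the higher at each. HNRNPD had its strongest RBFOX2-only places at 2941 nt, with 2.25 and 1.72, and at 4618 nt, with 1.52 and 1.35. In HNRNPL the highest such place reached only 0.62 in its weaker library, and in HNRNPA2B1 0.23.

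The opposite kind of place, with a peak in all 7 lists, was frequent on the hnRNP transcripts. There were 39 of 311 (12.5%), where 0.935% of all places in the lists were of this kind. HNRNPH1 held 10, HNRNPA2B1 and HNRNPK 8 each, HNRNPU 5, HNRNPA1 3, HNRNPD 2, and HNRNPC, HNRNPL and HNRNPM 1 each. The share over all places includes transcripts of every abundance, and RNA abundance was not measured here.

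At these 39 places the median log2 folds were −0.44 and −1.01 with RBFOX2, 0.78, 0.36, 0.24 and 0.58 with SLBP replicates 1 to 4 and 0.36 with IgG. Over all lists the medians at such places were −0.83 and −1.39 with RBFOX2, 0.47, 0.31, −0.17 and 0.17 with SLBP and 0.22 with IgG. Both RBFOX2 folds were below 0 at 26 of the 39 (66.7%), where 80.1% of such places over all lists were. Both RBFOX2 folds were below all 4 SLBP folds at 24 (61.5%), where 62.9% over all lists were. The hnRNP places found in every library therefore ordered RBFOX2 below SLBP in a share close to that of all such places.

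The 1 place of the 39 at which both RBFOX2 folds exceeded all 4 SLBP folds was in HNRNPA2B1, 1971 nt from the 5′ end of the window. Its log2 folds were 2.82 and 1.98 with RBFOX2, 0.53, 0.04, 0.24 and 1.41 with SLBP and 1.31 with IgG. Over all lists 3.19% of such places had this order.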

How the data were processed

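The data were 7 deposited eCLIP peak lists, 1 per library, of 24 samples in the series. The 7 input samples enter through the authors' folds, and 10 samples of an RNase I series were not analysed here. Each deposited list gives strand, a −log10 p-value with a ceiling of 400 and a log2 fold over the paired input; the lists have no header, and the units were read from the values. The authors used hg19, cutadapt, STAR, GATK, Picard and SAMtools, per the submitters' processing notes; which peak caller they used is not given in these sources. Antibody, replicate and RNase I amount were taken from the titles and labels.

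The 9 genes, their windows and the tests were chosen with earlier results of these data known. All 9 genes are named; named sites are the regions enriched in both RBFOX2 libraries and the enriched SLBP or IgG peaks, while the other sites were chosen after their values were seen. Peaks were matched on 1 strand by at least 1 nt, with coordinates counted from 1. Library medians of the log2 fold were compared by two-sided exact permutation, and shares have exact Clopper-Pearson 95% intervals. The overlap, merging and permutation steps were tested on simulated data. Python 3.11.15, pandas 2.3.3, numpy 2.4.6 and scipy 1.17.1 were used. Alternatives covered the limits on p and fold, the assignment to windows, the minimum region length, leaving out each library, the RNase I amount, a replicate block and, added after seeing the data, subtraction of each list's median. A genome or annotation of hg19 was not used here, so motif searches, gene features and other hnRNP genes were not analysed, and no sequence is given.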

Additional observations from a re-analysis of the deposited data

Results flagged for a closer look

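In HNRNPA2B1, HNRNPD and HNRNPU every RBFOX2 library had a median log2 fold below 0 and every SLBP library one above 0. The share of all genes with this order was not computed. At places with peaks in all 7 lists, both RBFOX2 folds were below all 4 SLBP folds at 62.9% over all lists. In the hnRNP genes this share was 61.5%. The RBFOX2 minus SLBP difference was −1.36 in HNRNPA2B1, −1.73 in HNRNPD and −1.10 in HNRNPU. The exact permutation p was 0.133 in each, the smallest that 2 against 4 libraries can give, so no difference could pass 0.05. With list medians subtracted the HNRNPU libraries overlap (difference −0.69, exact permutation p = 0.267), and with peaks weighted by width its difference is −0.57. IgG medians were above 0 in all 3 genes, at 0.66, 0.52 and 0.76. Over the 36 sets of values of the 4 SLBP libraries that were checked, 0 had a library standing apart from the others by Dixon's test.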

How the results depend on the processing

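Of 43 recomputed counts, shares and pooled medians, 30 stayed near their value and 13 moved. The mean number of enriched RBFOX2 peaks, 4, became 6.5 with a −log10 p of at least 3 and 1.5 with stricter limits (−log10 p at least 10, log2 fold at least 4), and leaving out each library gave 3 to 5. The share of 1.81% became 2.95% with the looser p, 2.70% with a log2 fold of at least 2 and 0.679% with stricter limits, where the whole lists had 9.98% and 9.84%, 9.60% and 9.53%, and 3.73% and 3.23%. It ranged from 1.30% to 2.31% without 1 library. The SLBP mean of 0.25 became 0.75 with the looser p and 0.75 with the looser fold, and 0 with stricter limits. Leaving out each SLBP library gave 0 to 0.333, with 0 without replicate 1, which holds the only enriched peak. IgG had 1 enriched peak with the looser fold. Stricter limits left 1 region in both RBFOX2 libraries, in HNRNPA1, and the looser fold gave 3, adding HNRNPH1. The median over all hnRNP peaks differed by −0.76 between RBFOX2 and SLBP. It became −0.0034 among peaks with a −log10 p above 0, a filter that removes every peak below input, and −0.35 after subtracting list medians, and leaving out each library gave −0.86 to −0.68. The gene differences kept their direction in 95 of 99 cases, though not always their size, as HNRNPC at −0.05 with peaks weighted by width shows. HNRNPH1 reversed to 0.0718 with only peaks of −log10 p above 0 and to 0.28 with list medians subtracted, and HNRNPK and HNRNPU reversed to 0.48 and 0.19 with only peaks of −log10 p above 0. The replicate numbers 1 and 2 occur in both antibodies, but nothing in the labels pairs them. As a replicate block they gave −0.88 for the median over all hnRNP peaks and changed no gene's direction. The block uses the same libraries as RBFOX2 against SLBP at 40 U alone, so both settings give the same differences by construction. The 99 cases count both settings. The smallest sign-flip p with 2 pairs is 0.5. Deviations of same-numbered libraries correlated at 0.28 over the 9 genes, a single value, since 2 libraries deviate equally from their mean. The unknown read depth limits every single fold.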

Other observations

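Folds differed along some windows. In HNRNPH1 the median log2 fold before the middle was 0.58 and 0.64 with RBFOX2 replicates 1 and 2, and past it −0.27 and −0.35. SLBP and IgG had the same order in HNRNPH1, with 0.83, 0.65, 0.66 and 0.52 before the middle and 0.16, 0.20, 0.21 and −0.05 past it for SLBP, and 0.96 and 0.29 for IgG. HNRNPK had −0.38 and 0.92 before the middle and −0.85 and −1.20 past it with RBFOX2. HNRNPA1 and HNRNPL had the opposite order with RBFOX2, −0.44 and −0.08 before the middle and 0.41 and 0.09 past it in HNRNPA1, and −0.14 and −1.07 before it and 0.30 and 0.14 past it in HNRNPL. From before to past the middle, IgG rose in HNRNPA1 (−0.15 to 0.41) and HNRNPL (0.35 to 1.02) and fell in HNRNPK (0.20 to −0.15). SLBP replicates 2 to 4 had the same order as IgG in HNRNPA1 and HNRNPK, and replicates 1 and 4 in HNRNPL. The other SLBP replicates had the reverse order in these genes. In HNRNPH1, 4 RBFOX2-only places lay between 4435 and 4762 nt from the 5′ end of the window. These stretches were compared after their values were seen and were not tested.

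Some RefSeq genes on GRCh38.p14 overlap members on either strand. HNRNPK overlaps the microRNA gene MIR7-1, the long noncoding RNA gene HNRNPK-AS1 and RMI1, and HNRNPU overlaps the small nucleolar RNA gene SNORA100 and the protein-coding LOC124904588. HNRNPH1 overlaps the long noncoding RNA gene LOC128966623, and HNRNPL overlaps LOC124904712. A peak on the same strand as such a partner cannot be told apart from one of the member. HNRNPA1, HNRNPA2B1, HNRNPC, HNRNPD and HNRNPM overlap no other gene in that table.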
